A study of Homo sapiens with 6 samples.

Results

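The 10 genes of necroptosis and death receptor signalling, RIPK1, RIPK3, MLKL, CASP8, CASP10, FADD, TRADD, CYLD, CFLAR and ZBP1, were followed in HCT116 cells cultured with shikonin. They were found by gene symbol, 10 of the 35106 genes in the count table. No expression value enters the rule, although it was set with earlier results of these data known. The cells, an established line from a human colorectal carcinoma, were labelled WT in all samples, and shikonin is a naphthoquinone from the roots of Lithospermum erythrorhizon. The shikonin treatment group had 3 libraries of cells labelled as treated with shikonin, at 8 μM for 24 h according to the sample labels, and the control group had 3 libraries of cells labelled as having no treatment. The study's methods give a lower dose for the same time, and a DMSO solution of the drug. Whether the 3 libraries within each group stem from separate cultures is stated in neither source, and p-values therefore refer to the spread among these libraries alone. A single cell line was sequenced, and messenger RNA was measured, not protein, protein cleavage or phosphorylation.

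When a ligand binds the TNF receptor, the adaptor TRADD and the kinase RIPK1 gather at the receptor, and ubiquitin chains placed on RIPK1 hold it in a survival complex. Once these chains are removed, among others by CYLD, RIPK1 can bind the adaptor FADD and the initiator caspase CASP8, whose activity CFLAR restrains, and the cell can die by apoptosis. Where caspase activity is blocked, RIPK1 binds RIPK3 through a shared motif called RHIM, RIPK3 phosphorylates MLKL, and MLKL breaks the plasma membrane, which is necroptosis. ZBP1, a sensor of Z-form nucleic acids, carries RHIM motifs too and can recruit RIPK3 without a death receptor. Shikonin is known as an inducer of necroptosis in other cells, and many cancer cell lines are known to lack RIPK3.

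The libraries held 18845690 to 21765806 estimated counts in the shikonin treatment group and 18874211 to 19781383 in the control group. Mitochondrially encoded genes took 4.55% to 6.99% of the counts in the shikonin treatment group, highest in shikonin replicate 1, and 4.27% to 5.16% in the control group. Of 8 epithelial markers, 6 passed the filter on low counts, with a summed level of 3572 to 4192 CPM (counts relative to library size, after TMM scaling) in the shikonin treatment group and 3578 to 3864 in the control group, whereas CDX1 and VIL1 were listed at 0 in all 6 libraries. Of the 12 markers of leukocytes, fibroblasts and endothelium, 3 passed the filter and CD3E, DCN and CDH5 were at 0 throughout. The leukocyte markers summed to 17.2 to 21.2 CPM in the shikonin treatment group and 11.7 to 13.7 in the control group, and their part in the results was not tested. The groups were compared with edgeR's quasi-likelihood test over 13548 genes, genes with an adjusted p under 0.05 were counted as called, and every direction follows the sample labels. Of all tested genes 21.9% were called, 10.8% higher and 11.1% lower in the shikonin treatment group. Scaled by library totals alone, the split was 1033 higher and 2150 lower, beside 1460 and 1504 in the comparison used here.

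Of the 10 genes, 8 had enough reads to be tested and 2 did not. In the shikonin treatment group RIPK1, CFLAR and CYLD fell, each to between 0.73 and 0.78 of its level in the control group. No member rose, and 5 were not called. The 2 genes without enough reads were RIPK3 and ZBP1, the kinase that phosphorylates MLKL and a sensor upstream of it. The RNA of MLKL itself was present in every library. For the tested members the share called lower was 3 of 8, beside 11.1% of all tested genes, and the share called higher was 0 of 8, beside 10.8%. At an unadjusted p under 0.05, 2 members were higher and 4 lower. That threshold is loose over all genes too, since an unadjusted edgeR p of 0.0471 ranked 4597 of 13548 tested genes. DESeq2 and limma-voom both called 0 higher and 3 lower. Without control replicate 1 the number lower was 1, and without shikonin replicate 1 or 3 the number higher was 1. Of the 8, 4 members, all lower, did not overlap between the groups, whereas 38.4% of all tested genes did not overlap and 20.3% did so with lower values. The median log2 fold change of the 8 tested members was -0.10, that of all tested genes was -0.02. In bulk RNA, fewer cells that express a gene and less of its RNA in each cell cannot be told apart.

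The 10 genes lie on 6 chromosomes, and 3 of them stand side by side. By the annotation of GRCh38, CFLAR (ENSG00000003402, chr2:201116154-201176687), CASP10 (ENSG00000003400, chr2:201182872-201229428) and CASP8 (ENSG00000064012, chr2:201233443-201361836) follow each other on the forward strand within 245.7 kb, with gaps of 6.2 and 4.0 kb. RIPK1 (ENSG00000137275) is at chr6:3063824-3115187 and FADD (ENSG00000168040) at chr11:70203296-70207390, both on the forward strand. Chromosome 16 carries CYLD on the forward strand (ENSG00000083799, chr16:50742050-50801935) and TRADD (ENSG00000102871, chr16:67154185-67159909) and MLKL (ENSG00000168404, chr16:74671855-74700960) on the reverse strand. RIPK3 (ENSG00000129465, chr14:24336025-24340022) and ZBP1 (ENSG00000124256, chr20:57603846-57620576) are on the reverse strand. Of the adjacent genes CFLAR fell, and CASP10 and CASP8 were not called, with log2 fold changes of 0.40 and 0.05. The differences between these neighbours were not tested.

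Starting points of the genes that fell are shown as RefSeq windows (GRCh38.p14, forward strand) of 250 bases before and 50 bases after an annotated start, and CASP8 is added as a gene that was not called. For each of the 4 genes the window shown was picked because it holds a motif match. Windows were looked up by gene symbol, which matched none for RIPK3, CASP10, TRADD and ZBP1. Whether RefSeq has starts for these genes under another entry was not examined. The lookup gave windows for 6 of the 10 genes, 15 windows in all, since several genes have more than 1 annotated start. They were searched on both strands for 3 short motifs, the interferon-stimulated response element (GAAA, 2 bases of any kind, GAAA), the STAT site TTCNNNGAA and the antioxidant response element TGACNNNGC. These letters were found in 3.57%, 7.66% and 13.3% of all 35116 such windows. Matches on either strand are in capitals below, so that a match on the reverse strand reads as the motif's reverse complement, and none of the motifs overlap each other there.
RIPK1, chr6:3068128-3068427: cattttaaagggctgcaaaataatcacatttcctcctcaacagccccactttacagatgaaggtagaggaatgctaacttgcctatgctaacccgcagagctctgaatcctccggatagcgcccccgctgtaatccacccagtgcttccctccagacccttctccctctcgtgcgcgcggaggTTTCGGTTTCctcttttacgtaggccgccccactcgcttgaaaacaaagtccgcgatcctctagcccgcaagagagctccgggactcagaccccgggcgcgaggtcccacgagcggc
CFLAR, chr2:201118466-201118765: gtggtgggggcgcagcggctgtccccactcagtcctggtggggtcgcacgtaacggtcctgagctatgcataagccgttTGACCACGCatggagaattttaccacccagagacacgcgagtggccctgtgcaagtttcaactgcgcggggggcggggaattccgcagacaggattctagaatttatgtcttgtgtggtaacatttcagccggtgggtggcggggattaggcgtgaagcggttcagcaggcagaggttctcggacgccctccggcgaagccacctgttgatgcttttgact
CYLD, chr16:50741836-50742135: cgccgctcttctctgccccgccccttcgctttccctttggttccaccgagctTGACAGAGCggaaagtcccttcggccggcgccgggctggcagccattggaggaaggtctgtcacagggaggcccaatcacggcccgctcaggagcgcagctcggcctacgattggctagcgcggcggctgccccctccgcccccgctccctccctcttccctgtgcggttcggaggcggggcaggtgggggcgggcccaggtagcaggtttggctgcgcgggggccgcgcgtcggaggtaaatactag
CASP8, chr2:201233213-201233512: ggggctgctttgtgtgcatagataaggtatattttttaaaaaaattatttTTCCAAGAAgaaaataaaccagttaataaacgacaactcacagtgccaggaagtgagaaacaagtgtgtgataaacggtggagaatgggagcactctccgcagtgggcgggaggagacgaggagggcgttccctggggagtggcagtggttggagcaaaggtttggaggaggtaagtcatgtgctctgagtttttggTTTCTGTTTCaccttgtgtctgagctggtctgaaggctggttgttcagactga
RIPK1 has 3 windows. The one shown held an interferon motif that begins 67 bases before the start, an overlapping one held the same match, and the one at the first annotated start (chr6:3063717-3064016) held none of the 3 motifs. Of the 3 CASP8 windows only the one shown held a match, an interferon motif that begins 3 bases before the start and a STAT motif 200 bases before it. An antioxidant motif was found in 1 of 4 CFLAR windows and 1 of 3 CYLD windows, beginning 171 and 198 bases before the start, and the other windows of both genes held no match. The windows of FADD and MLKL had none of the 3. Counted by window, 3 of the 15 windows held the interferon motif, 1 the STAT motif and 2 the antioxidant motif. A match is a run of letters and no measurement of binding, and interferon motif matches were present in windows both of RIPK1, which fell, and of CASP8, which was not called.

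The adaptors FADD and TRADD link receptors to the rest of the machinery, FADD by its death effector domain to CASP8 and TRADD by its death domain to the TNF receptor and RIPK1. TRADD had 29.9, 26.7 and 24.7 CPM in the shikonin treatment group, against 34.4, 30.4 and 31.8 in the control group. Every library of the shikonin treatment group lay below every control library, but the nearest were 29.9 and 30.4, and TRADD was not called (log2 fold change -0.25, SE 0.10, adjusted p = 0.0822). FADD had 43.8, 43.4 and 37.1 CPM in the shikonin treatment group, against 35.9, 33.7 and 38.1 in the control group. Shikonin replicate 3 lay within the control group, and FADD was not called either (log2 fold change 0.21, SE 0.09, adjusted p = 0.123). The 95% intervals of the log2 fold change were -0.46 to -0.04 for TRADD and 0.01 to 0.40 for FADD, both on 1 side of 0 before adjustment over all genes. TRADD was called lower when library totals were the only scaling (log2 fold change -0.31, adjusted p = 0.0304) and with a correction for the length and GC content of transcripts (-0.39, adjusted p = 0.00363), which brought FADD to 0.08. Without shikonin replicate 3 the value for TRADD was -0.16 (adjusted p = 0.209). Without that library FADD was at 0.30 on the log2 scale (adjusted p = 0.0138).

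RIPK1, the kinase that stands between survival, apoptosis and necroptosis, had the smallest p-value of the members. It had 56.8, 56.5 and 51.2 CPM in the shikonin treatment group, against 75.6, 71.0 and 78.9 in the control group. The groups were far apart, with 56.8 as the highest value in the shikonin treatment group and 71.0 as the lowest in the control group. RIPK1 thus fell to 54.8 ± 3.19 CPM in the shikonin treatment group, against 75.2 ± 3.98 in the control group (SD, n = 3 each), with a log2 fold change of -0.46 ± 0.08 (SE) and an edgeR adjusted p of 0.0011. It was called under every alternative and with each library left out, with log2 fold changes of -0.52 to -0.38. Among 13547 other tested genes, those whose centred log2 levels followed RIPK1 most closely over the 6 libraries were ABHD2, BBS1 and HECTD3, with root mean square differences of 0.019, 0.032 and 0.037 on the log2 scale. Their log2 fold changes were -0.47, -0.46 and -0.44.

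CYLD, the deubiquitinase that strips chains from RIPK1, had 15.2, 15.5 and 17.7 CPM in the shikonin treatment group, against 21.2, 20.5 and 20.1 in the control group. The control libraries lay close together, and shikonin replicate 3 was the nearest to them. CYLD fell to 16.1 ± 1.34 CPM in the shikonin treatment group, against 20.6 ± 0.584 in the control group (SD, n = 3 each), with a log2 fold change of -0.35 ± 0.11 (SE) and an edgeR adjusted p of 0.032. This call was the least firm of the 3. It was lost when any library except shikonin replicate 3 was left out, with adjusted p of 0.0566 to 0.113. Genes with long transcripts tended to be lower in the shikonin treatment group, with a median log2 fold change of -0.13 in the fifth of tested genes with the longest transcripts, which holds CYLD and CFLAR, and of 0.14 in the fifth with the shortest, which holds FADD and TRADD. Corrected for length and GC content, CYLD was at -0.19 on the log2 scale and was not called (adjusted p = 0.153). The lengths used are those of the annotated canonical transcript, 8540 bases for CYLD. The median over coding transcripts is 3259 bases for CYLD and 1230 for CFLAR, and a correction with these lengths was not run.

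**Figure D1:**
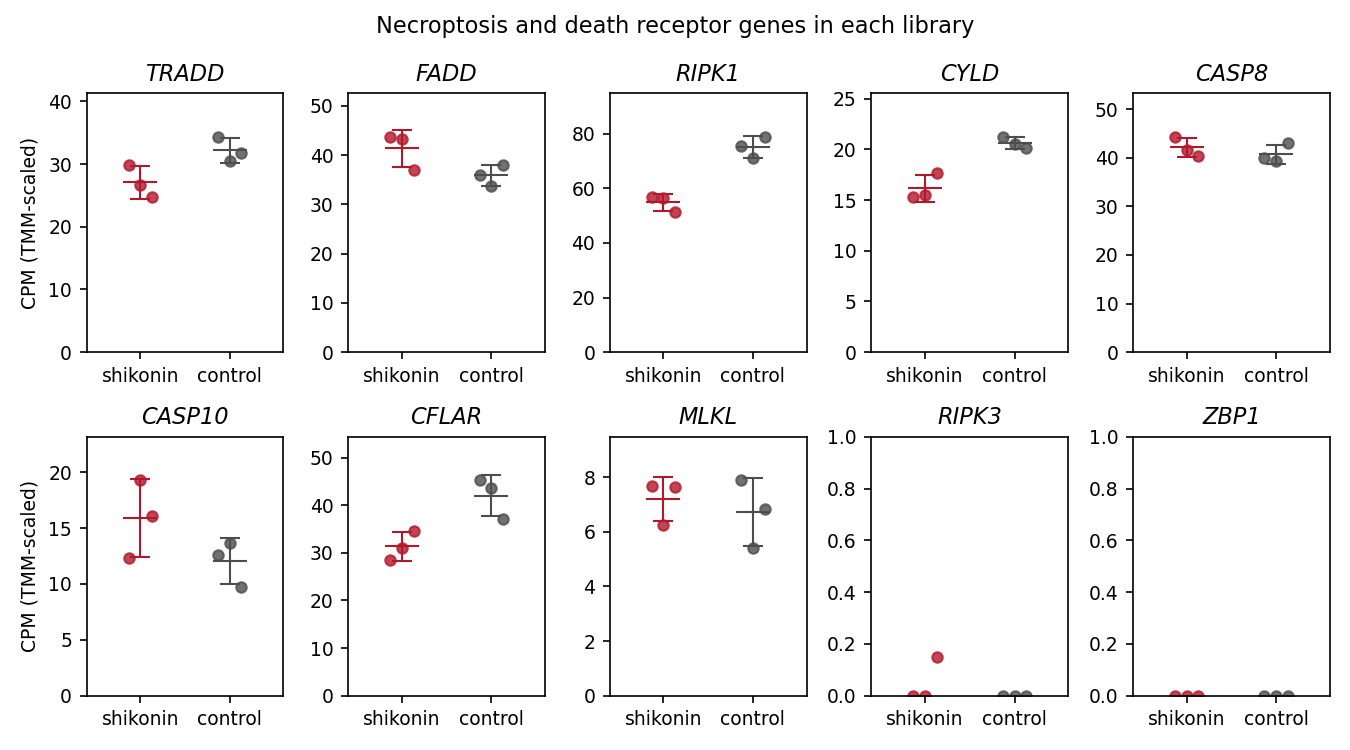
TMM-scaled CPM of the 10 genes in each library, shikonin treatment group left and control group right, with horizontal bars for the mean and whiskers of 1 SD (n = 3) for the 8 tested genes. RIPK1, CYLD, CFLAR and TRADD do not overlap between the groups, while RIPK3 and ZBP1 lie at or near 0.

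The caspases CASP8 and CASP10 start apoptosis once FADD brings them together, and CASP8 also cleaves RIPK1 and RIPK3. CASP8 had 44.4, 41.7 and 40.4 CPM in the shikonin treatment group, against 40.0, 39.3 and 43.0 in the control group. These ranges overlap for the most part, and CASP8 was not called (log2 fold change 0.05, 95% interval -0.13 to 0.22, adjusted p = 0.716). Scaled by library totals alone, its log2 fold change was -0.015. CASP10 had 12.3, 19.3 and 16.1 CPM in the shikonin treatment group, against 12.6, 13.7 and 9.73 in the control group. Shikonin replicates 2 and 3 lay above all control libraries and replicate 1 within them. CASP10 was not called (log2 fold change 0.40, SE 0.17, adjusted p = 0.102). Without shikonin replicate 1 its log2 fold change was 0.56 and its adjusted p 0.0296, and with the length and GC correction these were 0.50 and 0.0364. FLACC1 overlaps 53.8% of the CASP8 gene on the opposite strand, and whether counting used strand is not stated, but FLACC1 had at most 8 counts in a library.

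CFLAR, the catalytically inactive relative of these caspases that holds CASP8 back, had 28.6, 31.1 and 34.6 CPM in the shikonin treatment group, against 45.3, 43.6 and 37.2 in the control group. The highest library of the shikonin treatment group and the lowest of the control group, both replicate 3 of their group, lay 34.6 and 37.2 CPM high. CFLAR fell to 31.4 ± 3.01 CPM in the shikonin treatment group, against 42.0 ± 4.28 in the control group (SD, n = 3 each), with a log2 fold change of -0.42 ± 0.10 (SE) and an edgeR adjusted p of 0.00836. Without control replicate 1 the adjusted p was 0.0583. The length and GC correction brought CFLAR to -0.25 on the log2 scale, where it was still called (adjusted p = 0.0347). That correction used the canonical length of 14612 bases, while the median over coding transcripts of CFLAR is 1230. CFLAR makes long and short protein forms from 17 annotated coding transcripts, and counts per gene do not tell these apart.

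MLKL, the pore-forming executioner of necroptosis, was expressed in every library at a low level. It had 160, 114 and 154 counts in the shikonin treatment group, against 152, 107 and 138 in the control group, which is 7.67, 6.27 and 7.65 CPM against 7.90, 5.41 and 6.85. The groups overlapped, and MLKL was not called (log2 fold change 0.10, SE 0.18, adjusted p = 0.732). At these counts the 95% interval of its log2 fold change ran from -0.28 to 0.48, so that a moderate change in either direction was not detectable. MLKL stood at -0.034 on the log2 scale when control replicate 2 was left out.

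RIPK3 was close to absent from the counts. It was listed at 0 in shikonin replicates 1 and 2 and had 3 counts in shikonin replicate 3, against 0 in all 3 control libraries. A long noncoding RNA gene on the same strand, ENSG00000258973, overlaps 34% of RIPK3 and has no entry of its own in the count table. Whether the 3 counts came from it was not tested. These 3 counts have an exact 95% Poisson interval of 0.619 to 8.77 counts, which covers counting error only. By the same kind of interval, 0 counts over the control libraries together allow up to 3.69 counts, or 0.0623 CPM. No difference between the groups could be detected. For a single library the limit was set at 3 counts, which is 0.144 to 0.165 CPM depending on the library. ZBP1 was listed at 0 in all 6 libraries and was bound by the same limit. Zero counts throughout were found for 42.3% of all listed genes. RIPK1, MLKL, CASP8, CASP10, FADD, TRADD, CYLD and CFLAR were thus expressed in HCT116 cells, and RIPK3 and ZBP1 were not detected above that limit in either group, apart from the 3 counts at it.

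**Figure D2:**
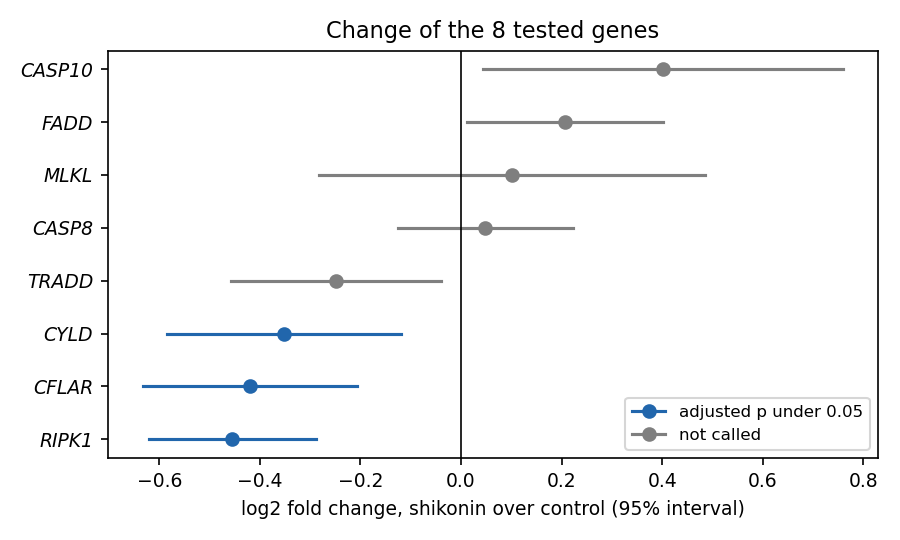
Log2 fold change of the shikonin treatment group over the control group with its 95% interval for the 8 tested genes (edgeR, 3 libraries per group). RIPK1, CFLAR and CYLD, at -0.46, -0.42 and -0.35, were called lower, and the other 5 genes, from -0.25 to 0.40, were not called.

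**Figure D3:**
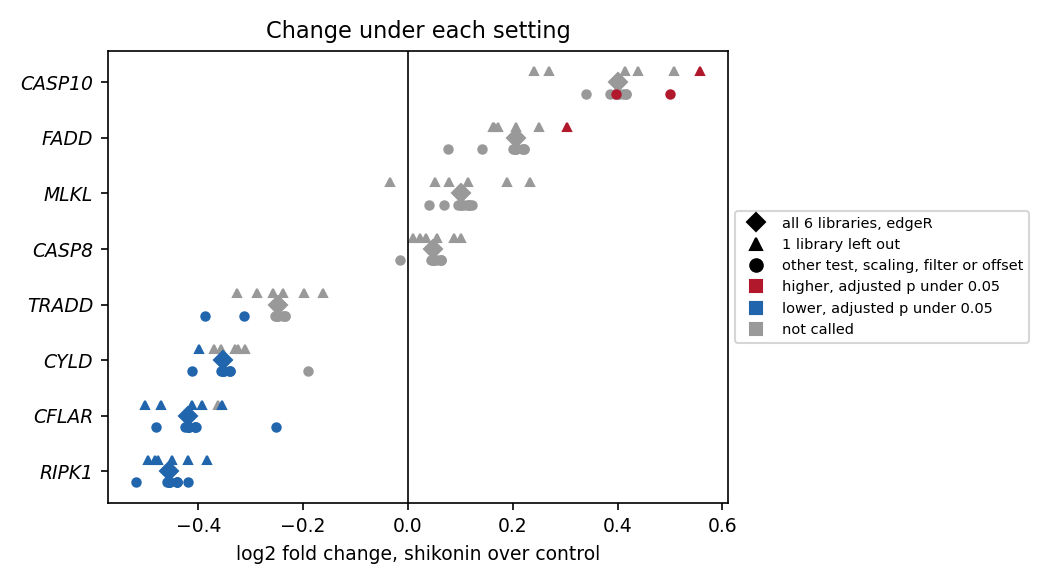
Log2 fold change of the shikonin treatment group over the control group for the 8 tested genes under each setting, with diamonds for edgeR on all 6 libraries, triangles for 1 library left out and circles for another test, scaling, filter or correction, coloured where called. RIPK1 was called throughout (-0.52 to -0.38), while CYLD was at -0.19 and not called with the length and GC correction.

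To compare levels between genes, counts were divided by the length of the annotated canonical transcript. They were then scaled to TPM (transcript abundance relative to the library's total), without TMM scaling. Differences between the groups in TPM can therefore depart from the log2 fold changes above, which are the ones tested. CASP8 had 34.6, 33.4 and 34.6 TPM in the shikonin treatment group, against 36.9, 36.15 and 38.0 in the control group. Its CPM overlapped, with a log2 fold change of 0.05. With canonical lengths the adaptors TRADD and FADD stood highest in the control group, an order that changes with the length used. In order of the mean in control libraries, TRADD had 39.4 ± 2.15 TPM in the shikonin treatment group and 52.5 ± 3.79 in the control group, FADD 52.3 ± 2.46 and 50.8 ± 2.16, RIPK1 28.9 ± 0.487 and 44.4 ± 1.70, and CASP8 34.2 ± 0.711 and 37.0 ± 0.947 (SD, n = 3 each). Far below them came CFLAR with 4.66 ± 0.674 TPM in the shikonin treatment group and 6.96 ± 0.858 in the control group, MLKL with 6.28 ± 0.830 and 6.55 ± 1.23, CYLD with 4.10 ± 0.541 and 5.84 ± 0.285, and CASP10 with 6.08 ± 1.41 and 5.14 ± 0.980. In the control group TRADD and FADD overlapped, as did each pair of neighbours from CFLAR to CASP10, while FADD, RIPK1, CASP8 and CFLAR were each apart from the next. In the shikonin treatment group, with the same lengths, FADD stood above TRADD and CASP8 above RIPK1, without overlap. TRADD was above 75.9% of the 13515 tested genes with a known length, and CASP10 above 21.5%.

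These levels depend on the length chosen. With the median length of a gene's coding transcripts, an alternative chosen after the data had been seen, CFLAR had 50.2 TPM in the control group and the highest level of all members, because its canonical transcript has 14612 bases and its median coding transcript 1230. The order among the others changed too, to CASP8 with 31.4 ± 1.055 TPM, FADD with 30.8 ± 1.45, TRADD with 28.5 ± 1.84 and RIPK1 with 27.4 ± 1.13 in the control group (SD, n = 3). By these means FADD stood above TRADD and CASP8 above RIPK1 there as well. FADD has 1708 bases with either length, so its lower TPM here, 30.8 beside 50.8, comes from the scaling to a total in which other genes' lengths changed. MLKL, CYLD and CASP10 had 9.28 to 10.9 TPM. CASP8, FADD, TRADD and RIPK1 stood above these 3 genes with either length, but the order among the 4 and the place of CFLAR are unsettled.

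**Figure D4:**
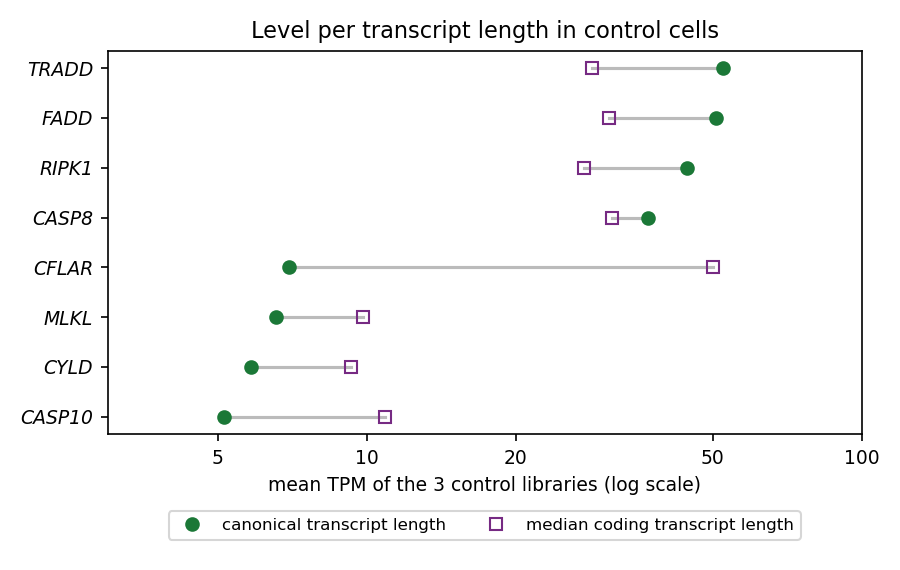
Mean TPM of the 3 control libraries on a log axis for the 8 expressed genes, by canonical transcript length (filled circles) and by the median length of coding transcripts (open squares). CFLAR moves between 6.96 and 50.2 TPM with the length chosen, while TRADD, FADD, RIPK1 and CASP8 stay above MLKL, CYLD and CASP10.

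Around these members, 75 other genes of the pathway were arranged in 5 lists by role, and 74 of them were in the table. Of 67 that could be tested, 6 were higher and 9 were lower in the shikonin treatment group, which is 22.4% and close to the 21.9% of all tested genes. Their median log2 fold change was -0.01, and 26 of the 67 (38.8%) did not overlap between the groups, beside 38.4% of all tested genes. These counts moved with single libraries, to 16 higher and 14 lower without shikonin replicate 3 and to 2 higher and 5 lower without control replicate 1. Without control replicate 2 they were 3 and 5, and without control replicate 3 they were 3 and 6. Without shikonin replicate 2 they were 5 and 6. The counts over all tested genes moved too, to 2074 higher and 1901 lower without shikonin replicate 3. Without control replicate 1 they were 861 and 776, beside 1460 and 1504 with all libraries. With all libraries, 27.3% of the 11 tested death receptors and 50% of the 2 tested ligands were called. The share was 18.2% of 22 for the ubiquitin complex, 10% of 20 for necrosome regulators and 41.7% of 12 for downstream genes. These lists are small, and the share of all tested genes was 21.9%.

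Death receptors and decoys were mostly expressed, 11 of 13 being tested, of which 2 were higher, 1 was lower and 8 were not called. TNFRSF6B, a soluble decoy for the Fas ligand, had the largest change of all 5 lists. It had 531, 580 and 602 CPM in the shikonin treatment group, against 279, 325 and 200.2 in the control group. The groups were far apart, and TNFRSF6B rose to 571 ± 36.5 CPM in the shikonin treatment group, against 268 ± 63.0 in the control group (SD, n = 3 each), with a log2 fold change of 1.09 ± 0.13 (SE) and an edgeR adjusted p of 7.87e-05. The whole gene lies within the readthrough gene RTEL1-TNFRSF6B, so its reads may have been shared between the 2 entries. The readthrough entry had only 62.1 to 199.6 counts in a library, against 4035 to 12130 for TNFRSF6B. TNFRSF10D, a decoy for the ligand TRAIL, rose too, to 133 ± 0.791 CPM in the shikonin treatment group, against 108 ± 6.61 in the control group (log2 fold change 0.31, adjusted p = 0.0068). Without control replicate 1 the adjusted p of TNFRSF10D was 0.0567. NGFR, the p75 neurotrophin receptor, fell to 38.6 ± 2.65 CPM in the shikonin treatment group, against 60.5 ± 6.21 in the control group (log2 fold change -0.65, adjusted p = 0.000281). The signalling receptors named here for their role were not called, with log2 fold changes of 0.06 for TNFRSF1A, 0.09 for the TRAIL receptor TNFRSF10B and -0.22 for FAS, which overlaps STAMBPL1 and ACTA2. TNFRSF1B, the second TNF receptor, had 3 to 16 counts in a library and TNFRSF11B at most 1, and neither was tested.

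Of the 7 ligands in the table, 5 had few counts or none and were not tested, and EDA and TNFSF12 were expressed. TNF, LTB and FASLG were listed at 0 in all 6 libraries, TNFSF10 (TRAIL) had 0 counts in each library of the shikonin treatment group and 3, 0 and 8 in the control group, and TNFSF15 had 3 to 15 counts. LTA was not analysed here. Of the 2 ligands tested, EDA, which encodes ectodysplasin, fell to 13.3 ± 0.470 CPM in the shikonin treatment group, against 20.95 ± 2.75 in the control group (SD, n = 3 each), with a log2 fold change of -0.65 ± 0.12 (SE) and an edgeR adjusted p of 0.0019. TNFSF12 (TWEAK), which shares most of its length with a readthrough gene, was not called (log2 fold change 0.23), and 0 ligands were higher by edgeR, by DESeq2, by limma-voom or at an unadjusted p under 0.05. Without shikonin replicate 3, edgeR called 1 ligand higher.

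Of the 22 genes of the ubiquitin complex at the TNF receptor, all of which were tested, 1 was higher, 3 were lower and 18 were not called. OTULIN, a deubiquitinase of linear chains, and TAB3, an adaptor of the kinase TAK1, had log2 fold changes of -0.29 and -0.31 (adjusted p = 0.0262 and 0.0234). BIRC2, the ubiquitin ligase cIAP1 that modifies RIPK1, had 41.7, 38.2 and 53.6 CPM in the shikonin treatment group, against 60.4, 53.3 and 55.1 in the control group. Shikonin replicate 3 lay within the control group, and the log2 fold change was -0.34 (adjusted p = 0.0393). RBCK1, a subunit of the linear ubiquitin ligase, was higher by 0.24 on the log2 scale (adjusted p = 0.0331), and TBC1D20, which overlaps it on the opposite strand, had 1900 to 2215 counts. None of these 4 calls was firm. All 4 were lost without shikonin replicate 1, shikonin replicate 2, control replicate 1 or control replicate 2, with adjusted p of 0.0508 to 0.177, and without control replicate 3 only the call for TAB3 was kept. Without shikonin replicate 3, 5 genes of the list were higher and 6 lower, and with the length and GC correction 1 was lower.

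Among 20 regulators of the necrosome and partners with a RHIM motif, 2 were lower, 0 were higher and 18 were not called. At an unadjusted p under 0.05, 3 were higher and 5 lower, a threshold that many of all tested genes pass (an edgeR p of 0.0471 ranked 4597 of 13548). DESeq2 called 2 higher and 2 lower, and limma-voom called 0 higher and 2 lower. ADAR, an RNA-editing enzyme that limits the Z-form RNA sensed by ZBP1, fell to 551 ± 37.4 CPM in the shikonin treatment group, against 734 ± 48.6 in the control group (SD, n = 3 each), with a log2 fold change of -0.41 ± 0.08 (SE) and an edgeR adjusted p of 0.00289. FLOT2, a flotillin of membrane rafts, fell by 0.24 on the log2 scale (adjusted p = 0.022). The call for ADAR held under all alternatives, and that for FLOT2 was lost when any control library was left out, with adjusted p of 0.066 to 0.0861. The number of lower genes in this list was 5 when scaled by library totals alone or with no filter, and 4 with the length and GC correction. It was 1 when any single control library was left out and 4 without shikonin replicate 3, where 4 others were higher.

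Downstream of CASP8, 12 genes of the executioner caspases and the mitochondrial link were tested, of which 3 were higher, 2 were lower and 7 were not called. BID, which CASP8 cleaves to carry the signal to mitochondria, had 48.8, 46.0 and 47.0 CPM in the shikonin treatment group, against 36.1, 34.5 and 31.9 in the control group. It rose (log2 fold change 0.47, SE 0.08, adjusted p = 0.00136 with edgeR). APAF1, the scaffold of the apoptosome, had 24.7, 20.7 and 22.4 CPM in the shikonin treatment group, against 32.4, 34.6 and 31.7 in the control group. It fell (log2 fold change -0.54, SE 0.10, adjusted p = 0.00148), as did CASP2 (log2 fold change -0.39, adjusted p = 0.00383). DFFA, the inhibitor of the caspase-activated nuclease, and CYCS, which encodes cytochrome c and has processed pseudogenes that can share its reads, had log2 fold changes of 0.24 and 0.26 (adjusted p = 0.017 and 0.0223), and both calls were lost when any control library was left out, that of DFFA also without shikonin replicate 1. The calls for BID, APAF1 and CASP2 held under all alternatives.

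**Figure D5:**
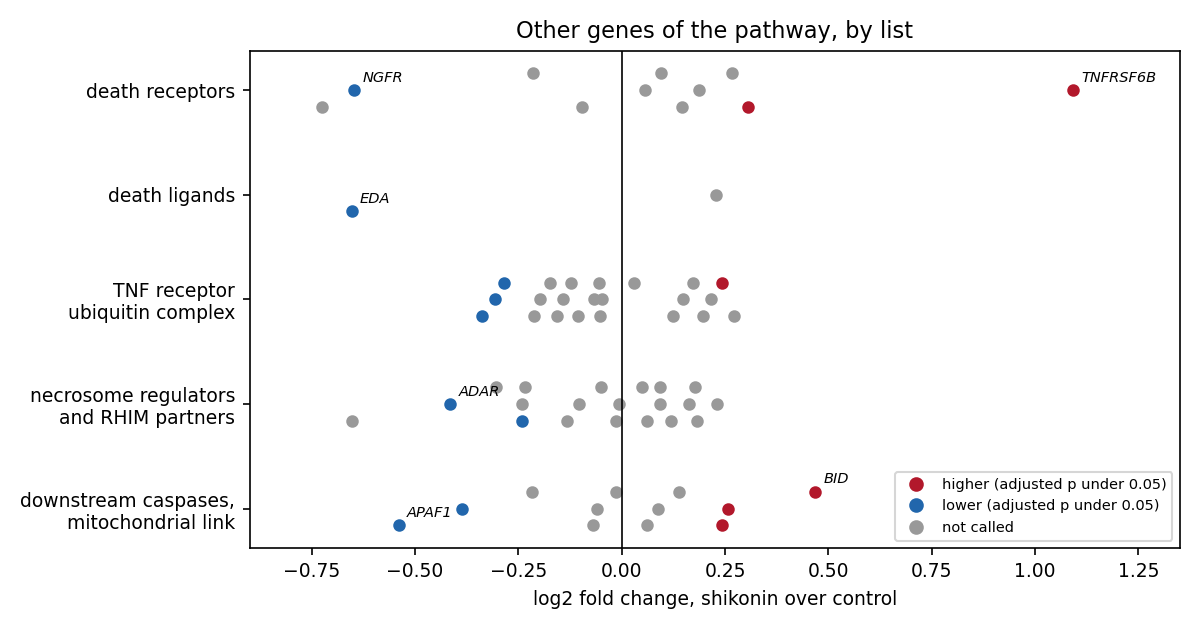
Log2 fold change of the shikonin treatment group over the control group for the 67 tested genes of the 5 lists, 1 point per gene, spread vertically only to separate points. TNFRSF6B stands apart at 1.09, NGFR and EDA lie at -0.65, and most genes of the other 3 lists were not called.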

How the data were processed

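Messenger RNA of 6 HCT116 libraries was sequenced. The values deposited by the authors are estimated counts for each gene and library, without normalization. According to the study's methods, reads were aligned to hg38 with TopHat2 and counted with featureCounts, whose versions and annotation are not given in the sources used here, whereas GRCm38 and mm10, builds of the mouse genome, stand in the submitters' processing notes although the identifiers are human. Of the values above 0 in a library, 46.5% to 63.3% were not whole, so counts were rounded to whole numbers. Of 35106 identifiers, 34979 matched GENCODE release 44 (GRCh38), which gave coordinates and transcript lengths.

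Genes kept by filterByExpr were TMM-scaled and compared in edgeR 4.0.16 (R 4.3.3; glmQLFit and glmQLFTest, no further terms), with Benjamini-Hochberg adjustment over 13548 genes. Standard errors were derived from each log2 fold change and its F value. The procedure was tested on simulated data. The comparison was repeated with limma-voom (limma 3.58.1), DESeq2 1.42.0, other scalings, no rounding, other filters, a replicate block and each library left out. It was also repeated with a correction for the length and GC content of the canonical transcript (offsets from splines with 5 degrees of freedom).

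Members were selected by symbol and no expression value, but members and lists were chosen with earlier results of these data known, and the lists were compiled by hand. Named are all members and, in each list, up to 6 called genes with the smallest p or genes not tested, besides the receptors and TNFSF12 named for their role. For the member with the smallest p the 3 genes closest in pattern are named. Promoter sequences are from RefSeq (GRCh38.p14). Protein sequences were not used here.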

Additional observations from a re-analysis of the deposited data

How the results depend on the processing

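Of the members, RIPK1 kept its direction and its call under all 16 alternatives. The number of members called lower, 3 in the comparison used here, was 2 to 4 under the alternatives that keep all libraries and 1 to 3 with 1 library left out (1 without control replicate 1). The number called higher, 0 there, was 1 with no filter on low counts and 1 with the length and GC correction, and 0 to 1 with 1 library left out. CASP10 was the higher member in these cases (log2 fold change 0.40 and adjusted p = 0.0315 with no filter, 0.50 with the correction), except without shikonin replicate 3, where it was FADD. With library totals as the only scaling TRADD was called (-0.31) and CASP8 turned to -0.015, and with the correction TRADD was called at -0.39 (adjusted p = 0.00363) and CYLD lost its call at -0.19. With 1 library left out, the log2 fold changes were -0.40 to -0.31 for CYLD, -0.50 to -0.36 for CFLAR, -0.33 to -0.16 for TRADD, 0.24 to 0.56 for CASP10, 0.16 to 0.30 for FADD, 0.01 to 0.10 for CASP8 and -0.03 to 0.23 for MLKL, which was -0.034 without control replicate 2. The number of pathway genes called was 2 to 16 higher and 5 to 14 lower with 1 library left out, most of both without shikonin replicate 3. Among these fits the numbers over all tested genes were also largest without that library, at 2074 higher and 1901 lower. The causes were not tested.

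Pairing of the samples by replicate number was not detected. Same-numbered libraries deviated together with correlations of 0.0027, 0.013 and 0.037 across genes, and differently numbered ones with -0.106 to 0.102. With 3 libraries per group such correlations cannot exclude a pairing. With a replicate block in edgeR, RIPK1 had a log2 fold change of -0.46 and CFLAR of -0.42, both called, while CYLD had -0.35 (adjusted p = 0.0617). With the block in DESeq2 CYLD had -0.34 (adjusted p = 0.166), and 5 pathway genes were lower. Over all genes, the DESeq2 block left 1031 higher and 776 lower. Depth limits what can be said of RIPK3, ZBP1 and the 5 ligands that were not tested, which had few counts or none.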

Other observations

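Within each library the members also shifted against each other, in ratios that were chosen after their values were seen. On the scale per canonical transcript length, FADD over RIPK1 was 1.84, 1.84 and 1.74 in the shikonin treatment group, against 1.14, 1.14 and 1.16 in the control group. The ratio varied little within a group, and the groups did not overlap. CASP8 over RIPK1 was 1.20, 1.14 and 1.22 in the shikonin treatment group, against 0.814, 0.853 and 0.838 in the control group, and MLKL over RIPK1 was 0.223, 0.183 and 0.247, against 0.172, 0.126 and 0.143. CASP8 over CFLAR was 8.53, 7.37 and 6.43 in the shikonin treatment group, against 4.85, 4.96 and 6.35 in the control group, where the replicates 3 of both groups nearly met. Each ratio contains the fall of RIPK1 or CFLAR, which were already called lower, together with the change of the other member. As the ratios were also chosen after their values were seen, a test of them could add no support, and no p-value is given. FADD over RIPK1 differed by 0.66 on the log2 scale, beside log2 fold changes of -0.46 for RIPK1 and 0.21 for FADD. FADD itself was not called and was at 0.08 with the length and GC correction. Another transcript length would scale a ratio by the same factor in all 6 libraries.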
